A study of Homo sapiens with 12 samples.

Results

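SGI-110 given alone was compared with solvent in ML-2 cells, an established human acute myeloid leukaemia line with a KMT2A-AFDN fusion, across every gene that the arrays could measure. The comparison rests on 6 of the 12 arrays of the series, 3 from cells that received 2 µM SGI-110 for 33 h and 3 from cells that received solvent in its place. In the other 6 arrays the cells received 5 µM ASTX660 for 9 h, after solvent in 3 arrays and after 24 h of 2 µM SGI-110 in the other 3. ASTX660 antagonises the inhibitor of apoptosis proteins. The arrays of each group are numbered 2, 9 and 13 and came from independent experiments, so the spread between them includes the spread between cultures of this single line. Of 19775 genes with a probe set, 12690 had a signal above the array median in at least 3 arrays and were tested.

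SGI-110, or guadecitabine, is a dinucleotide in which decitabine is joined to deoxyguanosine. Decitabine released from it is phosphorylated by the kinase DCK and built into DNA during replication, where it traps the maintenance methyltransferase DNMT1, so that CpG methylation is lost over cell divisions and protein adducts are left on the DNA. Methylated promoters keep germline genes silent in most somatic cells, and the tumour suppressor p53, a transcription factor stabilised after DNA damage, switches on genes for cell cycle arrest, cell death and repair. Myeloid leukaemia cells are blocked at an immature stage, and mature phagocytes are marked by surface receptors, adhesion molecules and the oxidase of the respiratory burst.

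Values are RMA log2 intensities, in which 1 unit is a 2-fold difference, and they lay between 2.078 and 14.38 with medians of 4.733 to 4.774 on the 6 arrays. A value near the array median is close to background, so folds of genes that start there are not exact. The first principal component of these 6 arrays held 62.6% of the variance and parted the SGI-110 arrays (scores 10.04 to 18.21) from the solvent arrays (−16.24 to −11.12), and the second (18.9%) set both arrays numbered 13 apart. The solvent means of the immature granulocyte genes ELANE (13.65), MPO (13.36), LYZ (13.17) and AZU1 (11.69) and of the myeloid factor CEBPA (10.76) were high. KIT, MEIS1 and CD14, at solvent means of 3.81, 3.38 and 3.71, lay below every array median, and CD34 was at 4.87. Of the markers written for other lineages, 9 of 27 erythroid and megakaryocyte, 19 of 41 lymphoid and 13 of 34 fibroblast, endothelial and epithelial genes lay below every array median on all 6 arrays. The mean level over each of those lists ranged from 5.31 to 5.40, 4.86 to 4.88 and 4.71 to 4.74 on the solvent arrays and from 5.32 to 5.39, 4.80 to 4.87 and 4.81 to 4.84 on the SGI-110 arrays, and their part in the results was not tested.

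SGI-110 raised more genes than it lowered, and the rises were larger. limma with Benjamini-Hochberg adjustment called 1955 of 12690 genes at an adjusted p under 0.05 (15.4%), of which 1206 were higher (9.5%) and 749 were lower (5.9%). The median change was 0.40 log2 units among the genes called higher and −0.29 among those called lower. At least 2-fold rises numbered 96 (0.757%), 8 of them 4-fold or more, against 4 falls of that size (0.0315%), in AFF3, MANEAL, KATNAL2 and NKD2. The genes that fell were brighter in solvent (median level 9.32) than the genes that rose (7.62) and all tested genes (7.66). Every gene called higher had a positive difference within each of the numbers 2, 9 and 13, and every gene called lower a negative one. The median differences within these numbers were 0.37, 0.40 and 0.43 for the genes called higher and −0.31, −0.26 and −0.29 for those called lower. These signs and sizes largely follow from the calls, which were made on the same arrays, and are no separate evidence. The groups did not overlap in 1201 of the genes called higher and 744 of those called lower, beside 36.2% of all tested genes.

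The share of rises among the calls depended on scaling: 61.7% were higher as deposited, 57.6% after quantile normalization and 43.4% of 2306 calls when each array was centred on the median of the tested genes, which moved the median change of all tested genes to −0.041. The numbers were read as marking the experiments, which the labels do not state. With the number as a block limma called 3202 genes (25.2%), 1887 higher (14.9%) and 1315 lower (10.4%), which included all 1955. Leaving out solvent array 9 gave 1239 calls (762 higher, 477 lower) and leaving out SGI-110 array 13 gave 1289 (772 higher). Falls numbered 477 when solvent array 13 was omitted and 441 when SGI-110 array 2 was. Where a gene had several probe sets they could differ: in 18 of the called genes named here, CD300A, CD9, CDKN1C, THBS1, ACTA2, ATF5, CCNB2 and NOP16 among them, another, dimmer probe set changed in the opposite direction, by up to −0.25 for CD300A.

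**Figure D1:**
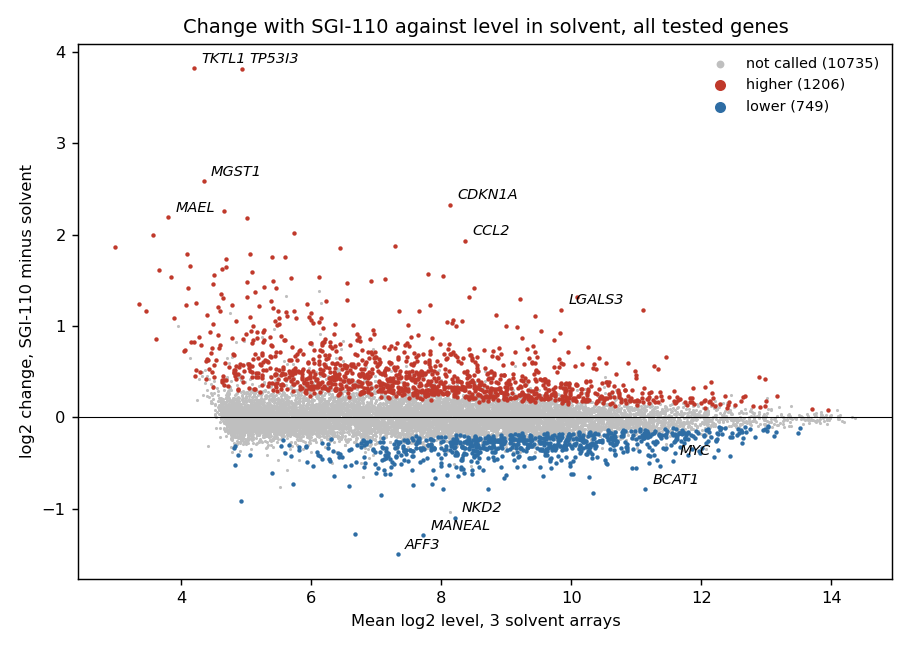
Change with SGI-110 (log2 units) against the mean log2 level on the 3 solvent arrays for each of 12690 tested genes, with genes called higher in red (1206) and lower in blue (749). The largest rises start from low levels, as for TKTL1 and MAEL, while BCAT1 and MYC fell from levels above 11.

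The largest rises included genes known as targets of p53, and in these the arrays of the 2 groups lay far apart. TP53I3, which encodes a quinone oxidoreductase, read 4.87, 5.23 and 4.71 on solvent arrays 2, 9 and 13 and 8.87, 8.38 and 9.02 on the SGI-110 arrays of the same numbers. CDKN1A, which encodes the cyclin-dependent kinase inhibitor p21, read 8.17, 7.90 and 8.32 and 10.46, 10.29 and 10.64. MDM2, which encodes the ubiquitin ligase that returns p53 to a low level, read 10.22, 9.99 and 10.07 and 11.45, 11.44 and 11.36. In each of these genes the lowest SGI-110 array was above the highest solvent array, as in 19.5% of all tested genes. The changes were 3.82 (SE 0.197, 14.1-fold, limma adjusted p = 5.84e-08) for TP53I3, 2.33 (SE 0.117, 5.03-fold, adjusted p = 4.96e-08) for CDKN1A and 1.32 (SE 0.079, 2.5-fold, adjusted p = 3.26e-07) for MDM2. Other probe sets of MDM2 gave changes from 0.28 to 2.36.

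Among p53 targets of arrest, checkpoint and feedback 9 of 14 rose and 0 fell, with a median change of 0.59 beside 0.00 over all tested genes. Counts in this and the later lists stand beside 9.5% higher and 5.9% lower over all tested genes. The lists were chosen with earlier results of these data known, so no set test was made. Members near background could pass the brightness filter through arrays in which they were high. PLK2, a polo-like kinase, rose by 2.02, from 5.87, 5.60 and 5.75 on the solvent arrays to 7.88, 7.77 and 7.63. GADD45A, a stress sensor that binds the cyclin B kinase, rose by 1.55, the growth factor family member GDF15 by 1.42 and PPM1D, a phosphatase that ends the damage signal, by 0.60. GDF15 started below the array medians, at 4.11 ± 0.151 (SD, n = 3), and reached 5.53 ± 0.155. Each of these 4 genes had arrays that did not overlap between the groups, as had 36.2% of all tested genes.

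Among p53 targets of cell death 11 of 14 rose and 0 fell (median 0.56). Of the 14, 2 had a solvent mean below every solvent array median and could pass the brightness filter through other arrays. Without that filter 10 of 15 rose and 0 fell, with a median of 0.36. The death receptor genes FAS and TNFRSF10B rose by 1.50 and 0.95, and the decoy receptor gene TNFRSF10D, whose product binds TRAIL without passing on a full death signal, by 0.92. BAX, which permeabilises the outer mitochondrial membrane, rose from 8.88 ± 0.101 to 9.64 ± 0.0274 (SD, n = 3). TP53INP1, a nuclear and autophagy protein gene, rose by 2.27 (SE 0.104), though its 3 probe sets spanned −0.01 to 2.27. Receptor genes that rose thus included a death receptor and a decoy of the same ligand.

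Of the p53 targets in DNA repair, metabolism and redox control 16 of 18 rose and 0 fell (median 0.71), the highest share of any list examined. SESN1, which restrains mTORC1 and supports peroxide defence, read 7.91, 7.79 and 7.71 on the solvent arrays and 9.41, 9.32 and 9.37 on the SGI-110 arrays, a rise of 1.57 (SE 0.0756, limma adjusted p = 4.67e-08). The nucleotide excision repair genes DDB2 and XPC rose by 1.00 and 0.67, the ceramidase gene ACER2 by 1.23 and TIGAR, a brake on glycolysis, by 0.75. RRM2B, the ribonucleotide reductase subunit that p53 controls, rose by 0.67. Counts in the 3 p53 lists moved by no more than 1.5 times when any single array was left out.

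A probe set annotated to MIR34A rose by 1.76, from 5.81, 5.51 and 5.46 on solvent arrays 2, 9 and 13 to 7.44, 7.05 and 7.56 on the SGI-110 arrays. MIR34A encodes a microRNA that p53 is known to induce and that represses cell cycle genes. Which transcript of this locus the probe set reads is not given in the annotation, and the mature RNA was not measured. Its sequence from the RefSeq GRCh38.p14 table is shown because the seed, in capitals (bases 2 to 8), sets which transcripts it can pair with. It is encoded on the minus strand at chr1:9151735-9151756.
hsa-miR-34a-5p: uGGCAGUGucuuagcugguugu

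**Figure D2:**
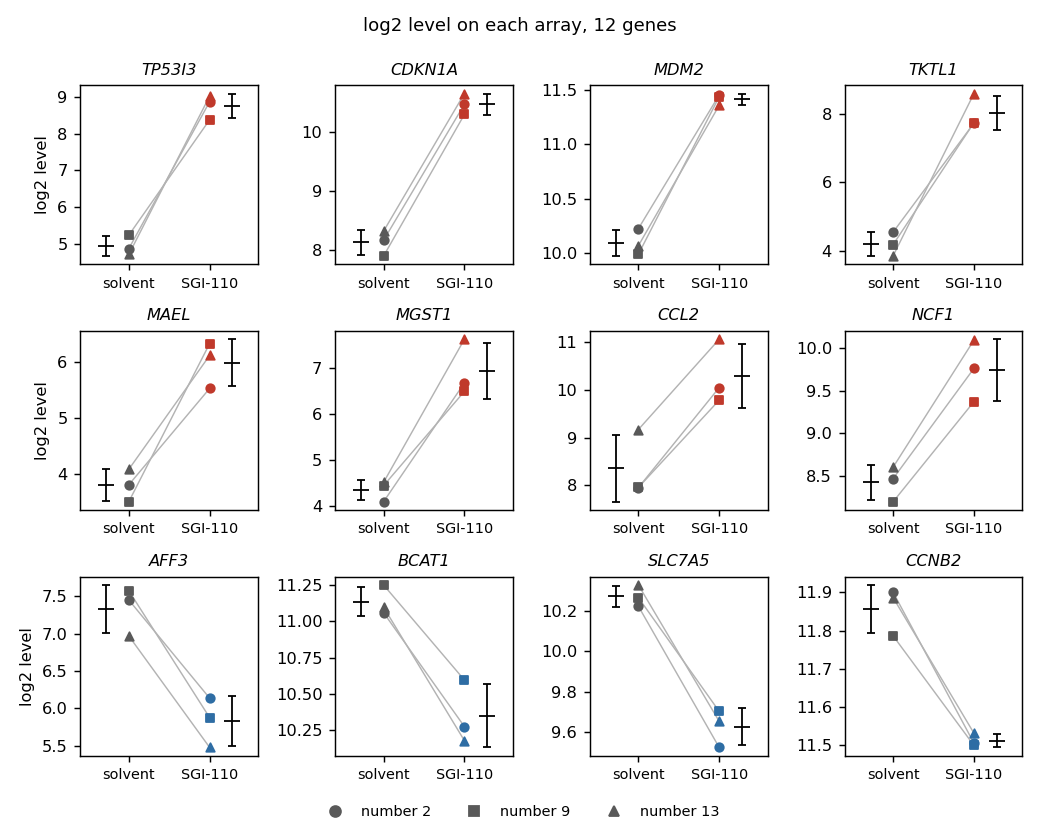
log2 level of 12 genes on each array, solvent in grey and SGI-110 in red (called higher) or blue (called lower), with lines joining arrays of the same number and the mean ± SD of 3 arrays beside the points. In each panel the groups do not overlap, as in 36.2% of all tested genes. Array 13 is the highest of both groups for CDKN1A, MGST1, CCL2 and NCF1.

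Germline genes that were near background in solvent became measurable. TKTL1, a transketolase-like gene expressed in testis, read 4.55, 4.19 and 3.86 on the solvent arrays, each below that array's median, and 7.73, 7.75 and 8.59 on the SGI-110 arrays, a difference of 3.82 (SE 0.239, limma adjusted p = 4.27e-07). MAEL, which acts in the piRNA pathway that silences transposons in germ cells, read 3.81, 3.51 and 4.09 and 5.53, 6.33 and 6.12. HORMAD1, which coats the axes of meiotic chromosomes, read 3.40, 3.67 and 3.63 and 5.01, 5.95 and 5.73. In these genes every solvent array was below and every SGI-110 array was above its array median, and array 13 was the highest SGI-110 array for TKTL1. MAGEB2, a cancer-testis antigen gene on the X chromosome, rose by 1.79, from 4.09 ± 0.138 to 5.88 ± 0.173 (SD, n = 3), and TEX19, a germ cell gene that represses transposons and was already at 6.31 ± 0.0766 in solvent, rose by 0.44.

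The promoters of MAEL, MAGEB2 and TKTL1 are shown because these genes were at background in solvent and were read on all 3 SGI-110 arrays, and because CpG methylation is what the agent is known to remove. Each is the 250 bases before the first start listed in the RefSeq table, GRCh38.p14, 5′ to 3′, with every CG in capitals. MAEL lies on the plus strand at chr1:166975332-166975581, MAGEB2 on the plus strand at chrX:30215313-30215562 and TKTL1 on the plus strand at chrX:154295545-154295794. The windows hold 51, 15 and 13 CG dinucleotides.
MAEL: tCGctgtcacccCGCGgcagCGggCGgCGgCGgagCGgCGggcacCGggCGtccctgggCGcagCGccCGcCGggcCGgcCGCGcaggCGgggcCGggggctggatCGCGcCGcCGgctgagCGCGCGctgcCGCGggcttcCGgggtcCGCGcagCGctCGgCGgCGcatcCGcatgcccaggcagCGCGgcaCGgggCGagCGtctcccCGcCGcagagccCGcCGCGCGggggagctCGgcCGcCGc
MAGEB2: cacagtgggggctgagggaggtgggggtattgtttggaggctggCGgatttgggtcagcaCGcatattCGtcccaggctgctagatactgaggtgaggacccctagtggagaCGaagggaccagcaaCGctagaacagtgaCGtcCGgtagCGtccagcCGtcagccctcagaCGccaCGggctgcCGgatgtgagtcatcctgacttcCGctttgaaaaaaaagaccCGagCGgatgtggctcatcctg
TKTL1: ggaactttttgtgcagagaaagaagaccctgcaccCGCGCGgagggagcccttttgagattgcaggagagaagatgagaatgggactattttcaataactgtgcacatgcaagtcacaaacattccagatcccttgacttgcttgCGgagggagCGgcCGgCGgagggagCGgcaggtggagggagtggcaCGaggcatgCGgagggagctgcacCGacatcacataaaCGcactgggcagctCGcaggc

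The switch from background to signal was made by few genes. Of 49 germline, meiosis and piRNA genes on the array 13 passed the brightness filter, and 5 of these rose and 0 fell. Of 44 cancer-testis antigen genes 16 passed, of which 2 rose (MAGEB2 and MAGED2, the latter by 0.27) and 1 fell. That fall became 0 without solvent array 2 or 13 or SGI-110 array 9 or 13. A gene of this kind could pass the filter through the arrays in which it was high, so these shares are not read against the background. Over the whole array 7039 genes lay below the array median on all 3 solvent arrays, and 31 of them (0.44%) were called higher with all 3 SGI-110 arrays above the median. The 31 included MGST1, GDF15, CD9, SERPINI1 and EGR1 beside the germline genes, and the 27 with a promoter in the table had a median of 15 CG dinucleotides in 250 bases, against 20 over all tested genes. Only 5 genes went the other way, NEXN, which encodes an actin-binding protein, among them.

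The CG content of promoters was compared between the genes that rose and the others. Among 10228 tested genes with a promoter in the table, the median number of CG dinucleotides in 250 bases was 21 for genes called higher (interquartile range 12 to 28), 21 for genes called lower (15 to 28) and 20 for genes not called (12 to 28). For the 75 genes higher by at least 2-fold it was 17 (6 to 27). Among genes whose solvent mean lay below every array median it was 16.5 for the 48 called higher and 15 for the 179 not called. The leading genes covered the whole range, with 6 in TP53I3, 12 in MGST1 and 27 in CDKN1A among the rises, and 2 in AFF3, 6 in MANEAL and 26 in NKD2 among the falls. Methylation itself was not measured on these arrays.

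Among 35 tested genes often reported as methylated in leukaemia or cancer 6 rose and 1 fell, with a median of 0.03 that turned to −0.01 when arrays were centred on the tested genes. Of the 35, 3 had a solvent mean below every solvent array median. Without the brightness filter 5 of 59 rose and 1 fell. CDKN1C, an imprinted inhibitor of cyclin-dependent kinases, rose by 1.42, from 5.22, 4.98 and 5.61 to 6.26, 6.33 and 7.48, and THBS1, which encodes the matrix glycoprotein thrombospondin, rose by 1.31. MGMT, which removes alkyl groups from guanine and is silenced by promoter methylation in some tumours, fell by 0.44. Without solvent array 9 or SGI-110 array 13 the list held 3 and 2 rises. Of 21 imprinted genes 2 rose and 2 fell (9.52% each, beside 9.5% higher and 5.9% lower over all tested genes). GRB10, an adaptor that dampens insulin signalling, fell by 0.74. In the imprinted list 1 rise was left without solvent array 9 or 13 or SGI-110 array 2 or 13, and 1 fall without solvent array 13 or SGI-110 array 9 or 13.

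Of 48 tested glutathione, metallothionein and antioxidant genes 14 rose, 0 fell and 34 were not called, with a median of 0.08. Of the 48, 2 had a solvent mean below every solvent array median. Without the brightness filter 16 of 57 rose and 0 fell, with a median of 0.05. MGST1, a membrane-bound glutathione transferase, read 4.09, 4.44 and 4.51 on the solvent arrays and 6.68, 6.49 and 7.63 on the SGI-110 arrays, a rise of 2.58 (SE 0.368, adjusted p = 4.23e-04 in limma). Array 13 gave the highest MGST1 value of the SGI-110 group, and the 5 probe sets of the gene spanned 0.03 to 2.58. CYP1B1, a cytochrome P450 that oxidises polycyclic hydrocarbons and oestrogens, rose by 1.17, and SRXN1, which restores oxidised peroxiredoxins, by 0.48. The metallothionein genes MT2A, MT1X and MT1F rose by 0.47, 0.39 and 0.38, and their probes can read relatives of the same family.

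Fatty acid and phospholipid genes moved in both directions, and most sterol genes that changed fell. ALOX5AP, which presents arachidonic acid to 5-lipoxygenase for leukotriene synthesis, rose from 11.27, 10.86 and 11.19 to 12.39, 11.98 and 12.46 on arrays 2, 9 and 13. PTGS1, a cyclooxygenase, rose by 0.74, and PLAAT3, a phospholipase and acyltransferase outside the list, by 1.88 (SE 0.135). The desaturase gene SCD fell by 0.56, ACACA, which makes malonyl-CoA, by 0.43, and ACLY, which supplies cytosolic acetyl-CoA, by 0.24. Of 32 tested fatty acid and phospholipid genes 5 rose and 6 fell, and of 32 cholesterol genes 1 rose and 6 fell. INSIG1, which holds sterol regulators in the endoplasmic reticulum, fell by 0.36, and the synthesis genes IDI1 and MSMO1 by 0.27 and 0.38. The rises in the fatty acid list numbered 3 without any one of solvent array 2 and SGI-110 arrays 2, 9 and 13, and 12 with the number as a block. The single rise in the cholesterol list became 0 without solvent array 2, SGI-110 array 2 or 13, ASTX660 array 9 or combination array 13, and 2 without solvent array 13.

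Many surface receptors of myeloid cells rose. Of 48 tested receptors 21 rose (background 9.5%), 0 fell and 27 were not called, with a median change of 0.31. Of the 48, 4 had a solvent mean below every solvent array median and could pass the brightness filter through other arrays. Without that filter 21 of 70 rose and 0 fell, with a median of 0.17. TYROBP, an adaptor that carries activating signals from many receptors, read 9.08, 8.83 and 9.07 on solvent arrays 2, 9 and 13 and 9.97, 9.86 and 10.17 on the SGI-110 arrays. TREM2, a lipid receptor that signals through that adaptor, read 6.39, 6.52 and 6.75 and 7.69, 7.53 and 8.30. Their changes were 1.00 (SE 0.106) and 1.29 (SE 0.215), with limma adjusted p of 4.11e-05 and 0.0013. For both genes every SGI-110 array lay above every solvent array, as in 19.5% of all tested genes. The inhibitory receptor genes CD300A and SIGLEC10 rose by 0.85 and 0.83, so receptors of both activating and inhibitory kinds rose. In these bulk cultures a larger share of receptor-bearing cells and more RNA per cell cannot be told apart. The cytokine receptor genes IL17RA and IFNGR1 rose by 0.78 and 0.45.

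Of 19 tested oxidase and granule genes 10 rose and 0 fell (median 0.23). NCF1, the oxidase subunit p47phox, rose from 8.47, 8.20 and 8.60 to 9.76, 9.37 and 10.10, a change of 1.32 (SE 0.196), and its probe can read the pseudogene copies. HP, haptoglobin, which binds free haemoglobin and is stored in neutrophil granules, rose by 2.19 (SE 0.189, limma adjusted p = 1.08e-05), from 5.17, 5.00 and 4.85 to 7.44, 6.77 and 7.36. RAC2, a GTPase that the oxidase needs, and MNDA, which encodes a nuclear protein of granulocytes and monocytes, rose by 0.33 and 0.37. Omitting solvent array 9 left 6 rises in the list, and omitting SGI-110 array 13 left 5.

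S100 proteins, annexins and galectins, which are abundant in maturing phagocytes, rose in 9 of 20 tested genes and fell in 0 (median 0.28). LGALS3, galectin-3, read 9.89, 9.73 and 9.91 in solvent and 10.94, 10.98 and 11.16 with SGI-110, and rose by 1.18 (SE 0.0777). ANXA1, a mediator that ends inflammation, rose by 1.12, and S100A10, S100A6 and S100A4 by 0.93, 0.72 and 0.66. LGALS1, already at 12.98 ± 0.109 (SD, n = 3) in solvent, rose by 0.43. These genes are also expressed in many other cell types.

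Of 41 tested adhesion genes 13 rose (31.7%, beside 9.5% of all tested genes) and 2 fell (4.88%, beside 5.9%), with a median of 0.12. With the block 21 were higher. Of the 41, 2 had a solvent mean below every solvent array median. Without the brightness filter 13 of 60 rose and 1 fell, with a median of 0.05. The tetraspanin gene CD9 rose by 1.12 and PECAM1, a homophilic adhesion receptor, by 0.85, while ITGA4, the integrin subunit that binds VCAM1, fell by 0.41. Of 40 actin and tubulin genes 14 rose and 1 fell (median 0.13). The actin-capping genes CAPG and GSN rose by 0.59 and 0.59, the smooth muscle actin gene ACTA2, also known as a p53 target, by 1.51. The unconventional myosin genes MYO10 and MYO5C, which are outside the list, rose by 1.65 and 1.64. The 2 lower adhesion calls became 1 without any one of solvent arrays 2 and 9, SGI-110 arrays 2 and 13, ASTX660 array 9 and combination arrays 2 and 9, and the lower cytoskeletal call became 0 without solvent array 13 or SGI-110 array 2 or 9 and 2 without SGI-110 array 13.

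Transcription factors of the myeloid lineage held fewer rises than the surface genes, though the difference between the lists was not tested. Of 37 tested 10 rose and 1 fell, with a median of 0.07. ID2, which blocks basic helix-loop-helix factors, rose by 0.65, NFE2 by 1.03, STAT3 by 0.42 and the immediate-early factor EGR1 by 0.93 from below the array medians. IRF8, a factor of monocyte and dendritic cell fate, fell from 11.82, 11.74 and 11.84 to 11.46, 11.33 and 11.35, by 0.42 (SE 0.0626). The rises numbered 6 without solvent array 2 or SGI-110 array 9 or 13, and 5 without solvent array 9.

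Secreted factors were led by CCL2, a chemokine that recruits monocytes. CCL2 read 7.95, 7.96 and 9.17 on solvent arrays 2, 9 and 13 and 10.05, 9.79 and 11.06 on the SGI-110 arrays. Arrays numbered 13 were the highest of both groups, and the change was 1.94 (SE 0.411, limma adjusted p = 0.00594). The highest solvent array lay below the lowest SGI-110 array, as in 19.5% of all tested genes. Of 39 cytokine, chemokine and receptor genes 13 rose and 2 fell (median 0.20). TNFSF9, the ligand of the T cell receptor 4-1BB, rose by 1.47, TNF by 0.65, TNFSF13B, the B cell factor BAFF, by 0.72, and the interleukin-1 antagonist gene IL1RN by 0.69, whereas VEGFA, a vascular growth factor, fell by 0.63. The rises numbered 8 without solvent array 9 or SGI-110 array 2, and the falls 1 without solvent array 9 or 13 or SGI-110 array 2 or 13.

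Immediate-early genes and phosphatases that feed back on MAP kinases rose in 14 of 33 cases and fell in 0 (median 0.23). IER3, an early response gene that sustains ERK signalling, read 5.42, 4.88 and 4.99 in solvent and 6.61, 6.48 and 6.97 with SGI-110, a rise of 1.59 (SE 0.159). DUSP6 and DUSP5, phosphatases that act on ERK, rose by 1.06 and 0.90, and the 3 probe sets of DUSP6 gave 1.04 to 1.08. KLF10, IER5 and the pseudokinase gene TRIB2 rose by 0.65, 0.65 and 0.69. The list held 2 falls without ASTX660 array 2. Of 22 feedback genes and subunits of NF-kB 4 rose and 0 fell, and without solvent array 2, solvent array 9 or SGI-110 array 13 the count was 1, 2 and 1.

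Lysosomal and autophagy genes rose by small amounts in many members, 21 of 65 with 0 falls and a median of 0.14. The protease genes CTSB and CTSD rose by 0.56 and 0.40, the sialidase NEU1 by 0.64, the proton pump subunit ATP6V0D1 by 0.42 and GABARAP, which decorates autophagosome membranes, by 0.51. CTSB read 10.15, 9.98 and 10.05 on the solvent arrays and 10.62, 10.55 and 10.69 on the SGI-110 arrays. CD63, a tetraspanin of lysosomes and granules, rose by 0.34. Without ASTX660 array 2 or 13 the list held 1 fall.

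Interferon-stimulated genes rose in 14 of 41 cases and fell in 0, with a median of 0.16. Of the 41, 2 had a solvent mean below every solvent array median. Without the brightness filter 12 of 53 rose and 0 fell, with a median of 0.11. TRIM22, a restriction factor that p53 is also known to induce, rose from 9.65, 9.27 and 9.39 to 10.65, 10.51 and 10.48, a change of 1.11 (SE 0.0999). IFIT3, which binds viral RNA complexes, rose by 0.85, HERC5, the ligase for the ubiquitin-like ISG15, by 0.60, OAS3, which makes the activator of RNase L, by 0.49, and LGALS3BP by 0.67. Without ASTX660 array 2 or 9 the list held 1 fall. Among 23 genes of nucleic acid sensing 6 rose and 0 fell, with IRF7 up by 0.64 and the kinase gene TBK1 by 0.37, and the rises numbered 3 without solvent array 2, solvent array 9 or SGI-110 array 13. In antigen presentation 8 of 32 genes rose and 0 fell: the peptide transporter gene TAP1 rose by 0.62, NLRC5, the activator of class I genes, by 0.50, and HLA-B, HLA-C and HLA-E by 0.24, 0.24 and 0.27, with probes that can read related class I genes.

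The interferon response element, searched as GAAA, any 2 bases and GAAA again on both strands, was found in the 250 bases before the start of 17 of 33 matched interferon-stimulated genes (51.5%) and of 9 of the 13 that rose, against 2.23% of all tested genes. Its share was 3.56% among genes called higher and 1.59% among genes called lower. The promoter of IFIT3 is shown as an example, from the plus strand at chr10:89327747-89327996, with the element in capitals.
IFIT3: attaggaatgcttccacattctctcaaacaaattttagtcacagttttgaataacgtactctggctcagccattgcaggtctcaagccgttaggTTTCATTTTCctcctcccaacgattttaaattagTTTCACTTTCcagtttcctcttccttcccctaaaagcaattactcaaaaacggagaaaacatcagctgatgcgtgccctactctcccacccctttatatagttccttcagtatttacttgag

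**Figure D3:**
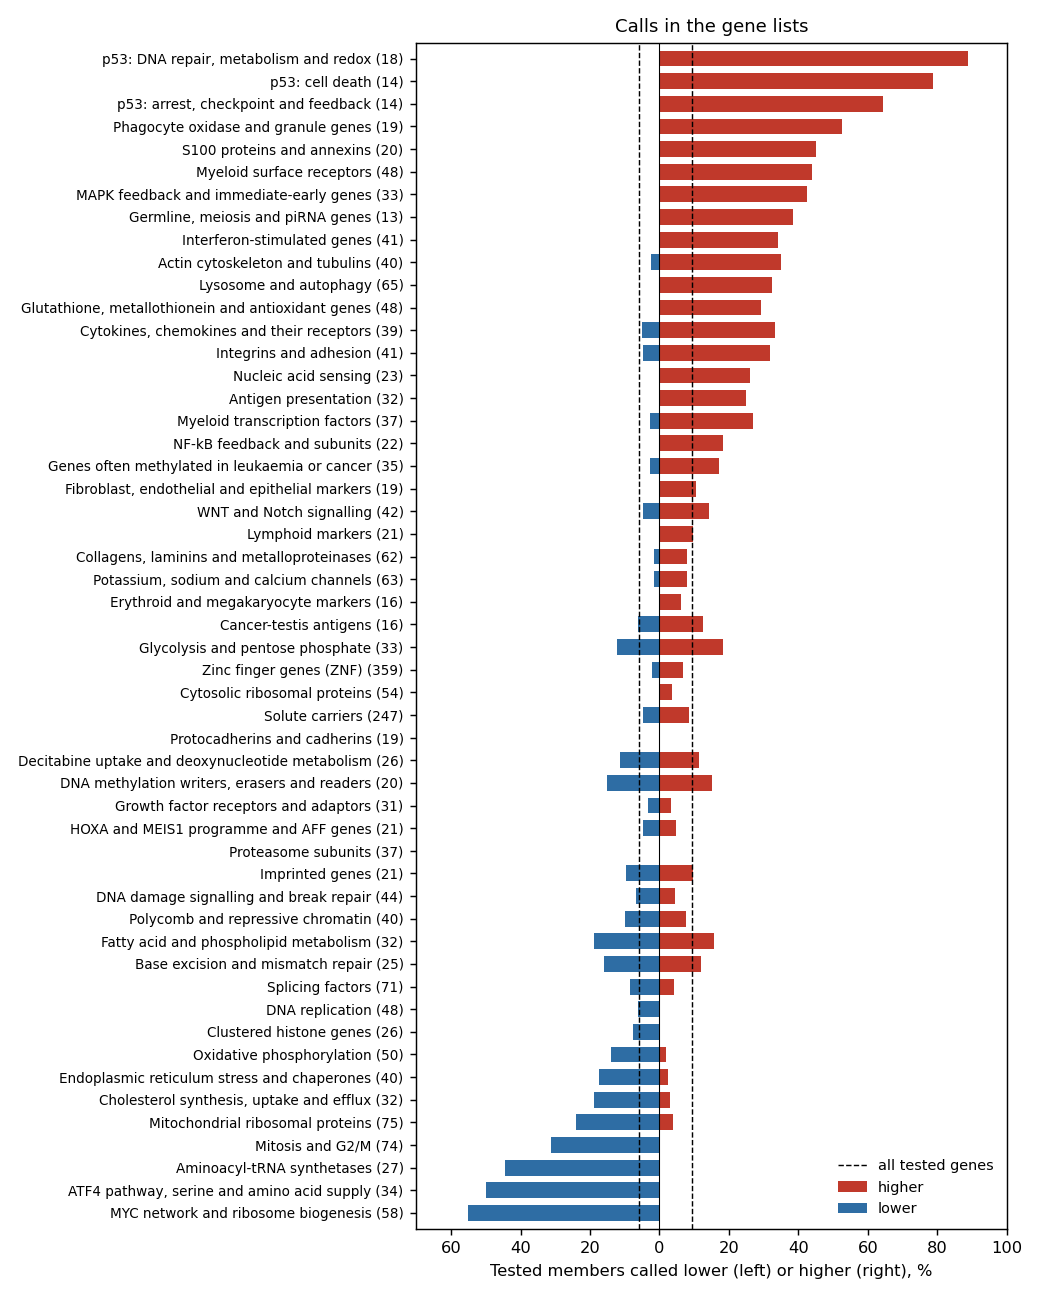
Share of tested members called higher (red, right) and lower (blue, left) in gene lists with at least 13 tested members, with the number tested in parentheses and dashed lines at the shares over all tested genes (9.5% and 5.9%). Some lists share members. The 3 p53 lists reach the highest shares of rises and the ribosome biogenesis list the highest share of falls. The lists were chosen with earlier results of these data known, so this order is descriptive only. The germline and cancer-testis bars are not read against the dashed lines, because members could pass the brightness filter through arrays in which they were high.

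The genes that fell furthest had no single theme. AFF3, a subunit of a transcription elongation complex whose gene is a fusion partner in leukaemia, read 7.45, 7.58 and 6.97 on solvent arrays 2, 9 and 13 and 6.14, 5.88 and 5.48 on the SGI-110 arrays, and fell by 1.50 (SE 0.207, 2.83-fold, limma adjusted p = 3.35e-04). MANEAL, which is related to an endomannosidase of the Golgi, fell by 1.29, KATNAL2, which is related to the microtubule-severing protein katanin, by 1.27, and NKD2, an antagonist of WNT signalling, by 1.10. In all 4 genes the highest SGI-110 array was below the lowest solvent array, as the rule for naming the furthest genes required. This held for 16.6% of all tested genes. NKD2 read 8.08, 8.34 and 8.19 in solvent and 6.93, 7.27 and 7.13 with SGI-110. Smaller falls were seen in IMMP2L, a mitochondrial inner membrane peptidase gene (−0.85), in ATF5, a stress-induced factor (−0.83), in TUBE1, epsilon tubulin (−0.79), and in INPP5A, an inositol phosphatase gene (−0.66). The 6 probe sets of AFF3 gave changes from −1.50 to −0.17.

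Very long genes held a larger share of falls than shorter genes, a difference that was not tested. Of 342 tested genes that span over 300 kb in the RefSeq table, 46 fell (13.5%) and 17 rose (4.97%). In the shorter classes 5.19% to 7.6% fell and 8.82% to 10.6% rose. In the arrays with ASTX660, which are separate from these, SGI-110 gave 18.4% falls and 3.51% rises over 300 kb. AFF3, IMMP2L, DIAPH2, HDAC9, ACACA, MGMT and COL23A1 are members of this class that fell, by 1.50, 0.85, 0.67, 0.61, 0.43, 0.44 and 0.46. The largest called change in the class was a rise, of 1.74. The median length was 96.1 kb among the 20 genes that fell furthest and 23.1 kb among the 20 that rose furthest, against 26.6 kb over all tested genes. The class was dimmer than the rest (median solvent level 6.69), and its count of falls ranged from 31 to 55 when single arrays were left out and was 70 with the block.

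**Figure D4:**
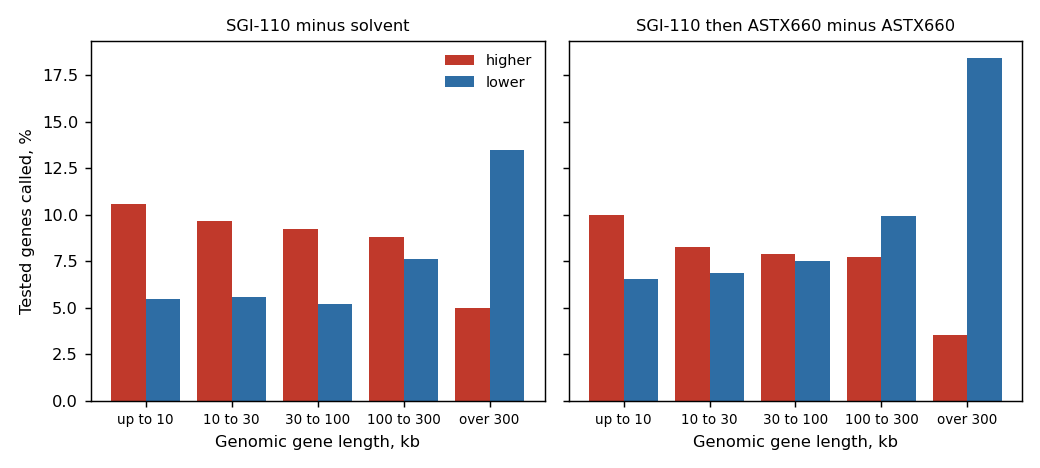
Percent of tested genes called higher (red) and lower (blue) by genomic gene length in kb, for SGI-110 against solvent (left) and for SGI-110 then ASTX660 against ASTX660 (right). Over 300 kb the share of falls is 13.5% and 18.4%, above that of every shorter class in the same panel.

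Genes of amino acid supply and of tRNA charging held many falls, though neither process was measured. Of 34 genes of the ATF4 pathway, serine synthesis and amino acid supply 17 fell and 0 rose (background 5.9% lower), with a median of −0.24. ATF4, the factor that switches on amino acid genes when they run short, read 12.38, 12.44 and 12.50 in solvent and 11.94, 12.10 and 12.02 with SGI-110 and fell by 0.43 (SE 0.0434). BCAT1, the cytosolic branched-chain transaminase, fell from 11.06, 11.25 and 11.10 to 10.27, 10.60 and 10.18, and SLC7A5, the large neutral amino acid carrier, from 10.23, 10.27 and 10.33 to 9.52, 9.70 and 9.65. Their changes were −0.79 (SE 0.105) and −0.65 (SE 0.0591). For both genes every SGI-110 array lay below every solvent array, as in 16.6% of all tested genes. SLC3A2, the partner chain of that carrier, fell by 0.44 and SHMT2, the mitochondrial serine hydroxymethyltransferase, by 0.39. Without solvent array 9 the list held 11 falls.

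Of 27 aminoacyl-tRNA synthetases, which load tRNAs with amino acids, 12 fell and 0 rose (median −0.19). IARS1, for isoleucine, read 11.95, 11.96 and 11.96 in solvent and 11.58, 11.67 and 11.53 with SGI-110. GARS1, LARS1, WARS1 and YARS1, for glycine, leucine, tryptophan and tyrosine, changed by −0.38, −0.37, −0.37 and −0.50. Endoplasmic reticulum and chaperone genes fell in 7 of 40 cases and rose in 1 (median −0.09), with 16 falls under the block and 12 without ASTX660 array 2, whose removal alters the shared estimate of spread. XBP1, a factor of the unfolded protein response, fell by 0.42, and HSPD1 and HSPE1, the mitochondrial chaperonin pair, by 0.17 and 0.24.

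Of 58 genes of the MYC network and ribosome biogenesis 32 fell and 0 rose, with a median of −0.20. MYC, which drives growth genes, read 11.58, 11.57 and 11.53 on solvent arrays 2, 9 and 13 and 11.09, 11.16 and 11.02 on the SGI-110 arrays and fell by 0.47 (SE 0.066, limma adjusted p = 3.54e-04). NOP16, LYAR and WDR12, nucleolar assembly factors, changed by −0.41, −0.40 and −0.30, the helicase gene DDX10 by −0.46 and the endonuclease gene NOB1, which finishes the small subunit RNA, by −0.36. NOP16 read 11.27, 11.28 and 11.27 in solvent and 10.83, 10.90 and 10.85 with SGI-110, so the difference exceeded the spread of each group. The falls numbered 20 without solvent array 9 or 13 and 18 without SGI-110 array 2. The E-box CACGTG, to which MYC binds, was found in 6 of 51 matched promoters of this list (11.8%), in 1 of the 27 that fell (3.7%) and in 8.72% of all tested genes.

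The ribosome's own proteins differed by compartment. Of 75 mitochondrial ribosomal protein genes 18 fell and 3 rose (median −0.13), or 36 and 0 with centring on the tested genes, and MRPL15, MRPL4 and MRPL3 changed by −0.42, −0.36 and −0.26. Of 54 cytosolic ribosomal protein genes 0 fell and 2 rose (median −0.02). RPS27L, a paralogue known as a p53 target, was one of these 2, with a rise of 0.44. The difference between the lists was not tested. Mitochondrial falls numbered 10 and 9 without solvent array 2 or 9, 8 without SGI-110 array 2 and 33 with the block, and mitochondrial rises became 0 without solvent array 2 and 1 without solvent array 13 or SGI-110 array 9 or 13. The cytosolic list held 1 rise without solvent array 13, and 1 fall without SGI-110 array 9 or combination array 9 or 13. Of 50 oxidative phosphorylation genes 7 fell and 1 rose, and the falls numbered 3 or 4 without solvent array 9 or 13 or SGI-110 array 2 or 13. That single rise was lost without solvent array 2 or 9 or any SGI-110 array.

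Mitotic genes fell, and few replication genes did. Of 74 genes of mitosis and G2/M 23 fell (31.1%) and 0 rose (median −0.13). Of 48 replication genes 3 fell (6.25%, beside 5.9% of all tested genes) and 0 rose (median 0.00). The difference between the lists was not tested. CCNB2, a B-type cyclin, read 11.90, 11.79 and 11.89 on solvent arrays 2, 9 and 13 and 11.51, 11.50 and 11.53 on the SGI-110 arrays. CCNB1, the other mitotic cyclin, read 11.29, 11.08 and 11.27 and 10.80, 10.74 and 10.83. Both fell on every array pair, by 0.35 (SE 0.0413) and 0.42 (SE 0.0605). Every SGI-110 array lay below every solvent array for both cyclins, as in 16.6% of all tested genes. The spindle checkpoint kinases BUB1 and BUB1B fell by 0.44 and 0.33, CKS2, a subunit of cyclin-dependent kinases, by 0.35, and HMMR, a spindle and hyaluronan-binding protein gene, by 0.53. Mitotic falls numbered 15 without solvent array 2 or 13, 14 without SGI-110 array 9 and 36 with the block. The replication falls became 1 without solvent array 9 or 13 or SGI-110 array 2 or 13, and 1 rise appeared without SGI-110 array 13.

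Mitotic promoters often carry the cell cycle homology region, searched here as TTTGAA on both strands. It was found in the 250 bases before the start of 27 of 61 matched mitotic genes (44.3%) and of 11 of the 20 that fell, against 8.78% of all tested genes, 11.3% of genes called lower and 7.93% of genes called higher. The CCAAT box, also on both strands, was found in 68.9% of mitotic genes and 35% of all tested genes. The promoters of CCNB2, on the plus strand at chr15:59104896-59105145, and BUB1B, on the plus strand at chr15:40160819-40161068, are shown with the TTTGAA match in capitals; it begins 29 and 23 bases before the listed start.
CCNB2: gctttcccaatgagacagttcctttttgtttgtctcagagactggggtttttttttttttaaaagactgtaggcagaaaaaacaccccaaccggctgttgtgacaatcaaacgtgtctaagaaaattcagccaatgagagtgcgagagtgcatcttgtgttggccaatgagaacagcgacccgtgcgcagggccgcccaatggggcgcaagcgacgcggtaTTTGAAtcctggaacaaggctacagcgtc
BUB1B: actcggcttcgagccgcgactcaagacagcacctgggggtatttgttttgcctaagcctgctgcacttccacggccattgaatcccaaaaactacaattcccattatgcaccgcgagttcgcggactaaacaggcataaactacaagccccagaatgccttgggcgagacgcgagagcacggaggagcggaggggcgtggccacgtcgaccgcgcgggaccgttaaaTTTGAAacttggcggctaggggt

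Few p53 targets held a p53 motif in the same window. The p53 half-site was found on either strand in 3 of 37 matched genes of the p53 lists (8.11%) and in 4.45% of all tested genes, 4.78% of genes called higher and 4.3% of genes called lower. PLK2 is shown because it rose and holds a half-site, in capitals, that begins 132 bases before the start; the window lies on the minus strand at chr5:58460087-58460336.
PLK2: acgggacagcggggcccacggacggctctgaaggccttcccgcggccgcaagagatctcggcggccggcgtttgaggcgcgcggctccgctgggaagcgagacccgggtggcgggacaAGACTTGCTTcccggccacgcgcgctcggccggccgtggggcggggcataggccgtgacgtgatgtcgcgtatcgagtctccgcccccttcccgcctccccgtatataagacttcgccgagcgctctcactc

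The methyltransferases that the agent acts on did not pass the test at the level of RNA. DNMT1, the maintenance methyltransferase, read 10.93, 11.06 and 11.03 in solvent and 11.06, 11.16 and 11.14 with SGI-110, and UHRF1, which guides it to replicated DNA, read 11.55, 11.59 and 11.70 and 11.52, 11.59 and 11.54. Neither passed the test: the differences were 0.12 (95% interval 0.02 to 0.21, limma adjusted p = 0.0957) and −0.06 (−0.17 to 0.04, adjusted p = 0.461), and DNMT1 passed with the block (adjusted p = 0.0305). The de novo methyltransferase genes DNMT3A and DNMT3B and the oxidase gene TET2 differed by 0.15 (−0.07 to 0.37), 0.24 (0.04 to 0.44) and 0.18 (−0.02 to 0.38) and did not pass. Of 20 tested writers, erasers and readers 3 rose (15%, beside 9.5% of all tested genes) and 3 fell (15%, beside 5.9%). GADD45A, which is held to aid demethylation as well as being a p53 target, had the largest rise of the list (1.55), and its relative GADD45B fell by 0.29. MBD4, a glycosylase that removes thymine opposite guanine at CpG sites, rose by 0.24, and IDH1, which makes the cofactor of the TET oxidases, fell by 0.36. A difference in protein, which trapping on DNA would affect, was not measured.

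In decitabine uptake and deoxynucleotide metabolism 3 of 26 genes rose and 3 fell (median −0.03). Each share was 11.5%, beside 9.5% higher and 5.9% lower over all tested genes. DCK, which activates decitabine, read 10.55, 10.45 and 10.58 in solvent and 10.57, 10.62 and 10.48 with SGI-110, a difference of 0.03 (95% interval −0.11 to 0.18) that did not pass. DCTD, the deoxycytidylate deaminase, fell by 0.31, and RRM2, the ribonucleotide reductase subunit of S phase, rose by 0.17. SAMHD1, which breaks down deoxynucleotide triphosphates, differed by 0.30 (adjusted p = 0.0719 in limma and 0.00362 with the block), and the nucleoside carrier gene SLC29A1 by 0.13 (−0.10 to 0.34). The falls became 1 without SGI-110 array 13 and 8 with the block, and the rises became 5 without ASTX660 array 2.

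DNA repair and chromatin genes moved in single members. Of 25 base excision and mismatch repair genes 3 rose (12%, beside 9.5% of all tested genes) and 4 fell (16%, beside 5.9%). NTHL1, a glycosylase for oxidised pyrimidines, fell by 0.52, APEX1, the abasic site endonuclease, by 0.22 and PMS1 by 0.30. The rises became 1 without solvent array 13 or SGI-110 array 2 or 9. Of 44 genes of damage signalling and break repair 2 rose (4.55%) and 3 fell (6.82%). None of those calls was kept in every fit without 1 array. Of 40 polycomb and repressive chromatin genes 3 rose (7.5%) and 4 fell (10%). The histone deacetylase gene HDAC9 fell by 0.61 and the histone H3 methyltransferase gene EHMT1 by 0.42, while the polycomb reader gene CBX7 rose by 0.43. Rises in the chromatin list became 1 without any one of the 6 solvent and SGI-110 arrays, and 5 without ASTX660 array 2 or combination array 9. In glycolysis and the pentose phosphate pathway 6 of 33 rose and 4 fell: the enolase gene ENO2 rose by 1.54, FBP1, which runs the path backwards, by 0.91 and HK1 by 0.49, while GPI fell by 0.21. The falls became 2 without solvent array 2 or SGI-110 array 13.

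In the remaining lists single members were called, mostly in shares near or below those of all tested genes (9.5% higher and 5.9% lower). Of 359 zinc finger genes 24 rose (6.69%) and 8 fell (2.23%), and of 247 solute carriers 21 rose (8.5%) and 12 fell (4.86%). Of 71 splicing factors 3 rose (4.23%) and 6 fell (8.45%), and of 63 ion channel genes 5 rose (7.94%) and 1 fell (1.59%). Of 42 WNT and Notch genes 6 rose (14.3%) and 2 fell (4.76%), and in the HOXA and AFF list of 21 genes AFF3 was the only fall (4.76%). Of 62 collagen, laminin and metalloproteinase genes 5 rose (8.06%) and 1 fell (1.61%). Among other lineages 1 of 16 erythroid and megakaryocyte (6.25%), 2 of 21 lymphoid (9.52%) and 2 of 19 fibroblast, endothelial and epithelial genes (10.5%) rose. These counts were small and moved with single arrays: the zinc finger rises numbered 12, 14, 13 and 11 without solvent array 9, solvent array 13, SGI-110 array 2 and SGI-110 array 13, and the solute carrier rises 12, 10 and 11 without solvent array 2, solvent array 9 and SGI-110 array 2. The zinc finger falls numbered 2 to 5 without any one of those arrays or solvent array 2. WNT and Notch rises numbered 3 without solvent array 9, splicing falls 3 without solvent array 2, and ion channel rises 1 without solvent array 9. Splicing rises became 0 without any one of the solvent arrays or SGI-110 array 9 and 1 without SGI-110 array 13. Rises in the collagen list were 2 without solvent array 9 or SGI-110 array 13, 3 without solvent array 2 or 13 or SGI-110 array 2, and 11 with the block. With centring on the tested genes the zinc finger genes gave 18 rises and 20 falls, the solute carriers 20 and 24 and the splicing factors 0 and 15. The same centring gave 15 falls in the endoplasmic reticulum list, 12 in oxidative phosphorylation, 10 in break repair and 8 each in the decitabine and chromatin lists.

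Probe sets were also tested one by one, including those outside the gene-level comparison. With each of 28309 bright enough probe sets tested on its own, limma called 2903 (10.3%), with 6.29% of those tested higher and 3.96% lower. Of the probe sets that the annotation does not list, 117 of 3503 were higher (3.34%) and 74 lower (2.11%), 9 of them higher by at least 2-fold. Of 23661 probe sets with 1 gene 1598 were higher (6.75%) and 989 lower (4.18%). Probe sets that match several genes gave 67 higher (5.85%) and 58 lower (5.07%) of 1145. The differences between these classes were not tested. Among genes, 29 of 732 long non-coding RNA genes were higher (3.96%) and 24 lower (3.28%), against 9.96% and 6.14% of 11710 protein-coding genes. The non-coding genes were dimmer in solvent, with a median level of 5.49 against 7.87, and the part of that difference in these shares was not tested.

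The same change was measured again in the arrays with ASTX660, in which SGI-110 then ASTX660 was compared with ASTX660 alone. These arrays share none with the comparison above. Both comparisons came from 1 fit and used the same estimate of spread for each gene, so their calls are not independent. limma called 2038 genes there (16.1%), 1062 higher (8.37%) and 976 lower (7.69%). Of the 1206 genes that rose with SGI-110 alone, 867 were called higher there (71.9%, and 81.6% of that comparison's rises), and 1197 had a positive difference. Of the 749 that fell, 590 were called lower (78.8%, and 60.5% of that comparison's falls), 747 had a negative difference and 0 genes were called in opposite directions. The change there was 3.75 for TP53I3, 2.08 for CDKN1A, 4.18 for TKTL1, 2.29 for MAEL, 1.96 for CCL2, −1.55 for AFF3, −0.71 for BCAT1 and −0.34 for CCNB1. Over the lists the mitotic genes had 22 falls, ribosome biogenesis 34 and the myeloid receptors 22 rises. There SGI-110 was given 24 h before ASTX660 and here for 33 h in all. Without combination array 2 or 13, 1310 and 1313 genes were called.

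A test of whether SGI-110 changed any gene differently in the presence of ASTX660 gave 0 calls in limma, with 204 genes at an unadjusted p under 0.05 and a smallest adjusted p of 0.644. The number at an unadjusted p under 0.05 was 201 with robust variances, 333 with array weights and 394 with the block, each with 0 calls. The median standard error of that difference was 0.12 log2 units, so equal changes are not shown.

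**Figure D5:**
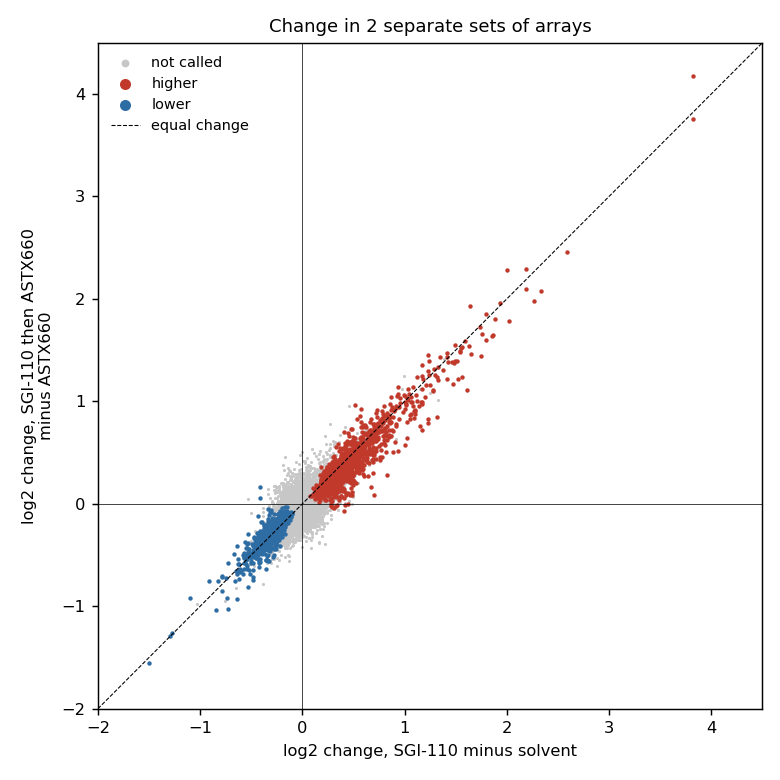
log2 change with SGI-110 against solvent (x axis) and with SGI-110 then ASTX660 against ASTX660 (y axis) for each tested gene, coloured by its call in the first comparison. The points called higher and lower follow the dashed line of equal change, with TKTL1 and TP53I3 at the upper right and AFF3 at the lower left.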

How the data were processed

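ML-2 cells were profiled on Affymetrix 3′ arrays from 100 ng of total RNA, per the labels' protocols. The authors deposited log2 values from RMA with the affy package, per the submitters' processing notes; versions, and whether all arrays were normalized together, are not given in the sources used here. Of 54675 probe sets, 41091 had 1 gene symbol, 1801 had several and 11777 were not in the probe annotation used (GEO's, updated through gene IDs); only those with 1 were named. Where a gene had several, the brightest over all 12 arrays stood for it, and genes brighter than the array median in 3 or more arrays were tested.

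limma 3.58.1 (R 4.3.3) fitted 1 mean per group over all 12 arrays with a variance trend (8 residual degrees of freedom), and adjusted p-values by Benjamini-Hochberg over 12690 genes. The median 95% interval extended 0.18 log2 units either way, and 3 arrays per group limit the precision. As a pairing check, deviations of same-numbered solvent and SGI-110 arrays from their group means were correlated. They gave 0.377, 0.367 and 0.572 for numbers 2, 9 and 13, from the titles, and the number was read as the experiment. Combination and ASTX660 arrays gave 0.057, 0.158 and 0.539, so number 2 hardly paired there. Arrays of different numbers were not correlated, and both arrays numbered 13 stood apart, so the check cannot show that numbers 2 and 9 pair. Alternatives were the block, robust variances, array weights, centring, quantile normalization, other filters and probe set rules, a stricter threshold and leaving out each array. The fit was checked on simulated data.

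The genes named were the 20 furthest in each direction without overlap between groups, up to 6 members per list by adjusted p, and a few named whatever their values; others are named where a small count turns on them. The 42 gene lists and 12 families were chosen with earlier results of these data known, and family patterns were trimmed after values were seen. The result of 1 family is not reported here. Gene lengths, promoters and the microRNA came from RefSeq tables (GRCh38.p14), of which 10228 tested genes matched a promoter.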

Additional observations from a re-analysis of the deposited data

How the results depend on the processing

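In place of 1955 calls between SGI-110 and solvent, 3202 were made with the replicate number as a block (1887 higher, 1315 lower) and 899 at an adjusted p under 0.01 (597 higher, 302 lower). The genes called lower numbered 1166 with array weights and 1305 with centring on the tested genes, an alternative added after seeing the data. Genes lower by 2-fold numbered 1 with the mean over probe sets. The 31 upward crossings of the array median became 0, by construction, when genes had to exceed it in all 12 arrays or, in another filter added afterwards, in all solvent arrays. The 5 downward crossings became 0 under the first of these filters and 3 with the mean over probe sets or the first probe set. Calls in the ASTX660 background became 3380 with the block and 894 at the stricter threshold. Leaving out single arrays gave 1239 to 2312 calls, 762 to 1407 higher and 441 to 905 lower, 77 to 100 and 4 to 5 with 2-fold rises and falls, 22 to 31 upward and 1 to 7 downward crossings, 1310 to 2034 calls in the ASTX660 background and 0 for the interaction. The change of DCK, which did not pass, ranged from -0.006 to 0.070 without single arrays and was -0.009 with centring on the tested genes. The 159 called genes whose change or median crossing is described gave 3765 values under these alternatives, of which 3752 kept direction and call, 0 turned direction and 13, in 12 genes that included MDM2, PTGS1 and CCNB2, lost the call, each under another choice of probe set. Most of these genes were named for a small adjusted p or a large change in these same data. Their stability is therefore not that of all calls, which numbered as few as 1239 without 1 array. CEBPA, named for its level, was called higher but not without solvent array 9 or 13 or SGI-110 array 9 or 13. Beside DNMT1 and SAMHD1, the block changed no other call of a named gene. Except for construction by the filters and thresholds, the cause of these shifts was not tested, and small differences near the array median cannot be resolved.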
